A study of Mus musculus with 12 samples.

Results

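The clustered histone genes code for the histones that cells make while they copy their DNA. They were chosen by name, as every gene whose symbol in the study's expression table starts with Hist1h, Hist2h, Hist3h or Hist4h, and 71 of the 45792 genes of the table were members. By type they were 6 genes for the linker histone H1, 20 for H2A, 20 for H2B, 12 for H3 and 13 for H4. RNA came from neural stem cells (NSCs) of the forebrain of C57BL/6 mouse pups of 1 to 2 days, grown in serum-free medium with EGF and FGF to the second passage, with 1 culture per library. There were 4 libraries each of WT NSCs, of Ncf1-/- NSCs given vehicle (their treatment is labelled as none) and of Ncf1-/- NSCs given recombinant Igfbp2. Ncf1 codes for an organizer subunit of the Nox2 NADPH oxidase, and its loss is constitutive in these mice. Igfbp2 is a secreted binding protein of insulin-like growth factors, and the labels give 100 ng/ml, added 48 h after plating and 48 h before RNA was collected, whereas the methods of the study give a lower concentration. Ribosomal RNA was depleted before the libraries were made, so that mRNAs without a poly(A) tail were not lost at that step.

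DNA is wound around a core of H2A, H2B, H3 and H4, and H1 binds where the DNA enters and leaves that core. The clustered genes mostly have no introns, and their mRNAs end in a short stem-loop in place of a poly(A) tail. Stem-loop binding protein (Slbp) holds this hairpin, the U7 complex cuts after it, and the mRNA is made in S phase and removed when replication ends. Npat, a target of cyclin E and Cdk2, drives their transcription in nuclear bodies at the gene clusters. Other histone genes, such as H3f3b and H2afz, lie outside the clusters and make polyadenylated mRNAs throughout the cell cycle.

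In GRCm38 with the GENCODE vM21 annotation, the members lay in 4 clusters. Hist1 held 56 members on chromosome 13, of which 53 with a position lay between chr13:21715763-23934851. Hist2 held 11 members at chr3:96219865-96279001, Hist3 held 3 at chr11:58948920-58956830 and Hist4 held 1 at chr6:136801553-136804415. The pseudogene Hist1h2al lay apart from the rest of its cluster, and the identifiers of Hist1h2bh and Hist1h2bm had no position in that release.

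The hairpin was searched in the annotated transcripts as a 6-base stem that starts with GG and ends with CT, a 4-base loop of TT, then T or C, then T, C or A, and the reverse complement of the stem. It was found in 42 of the 71 members and in 0.224% of 21901 protein-coding genes, where 42 of the 49 genes that held it were members. The 6 forms are shown because they are what the members share beyond their names, with the paired stems in capitals and the loop in lower case, as the DNA letters of the transcript.

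Form of 24 members, Hist1h1c and Hist1h2ab among them: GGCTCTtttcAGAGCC
Form of 7 members, Hist1h4d and Hist1h4n among them: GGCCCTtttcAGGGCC
Form of 6 members, Hist1h3c and Hist1h2bk among them: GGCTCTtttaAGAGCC
Form of 2 members, Hist1h4i and Hist2h4: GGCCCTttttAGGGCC
Form of 2 members, Hist1h4b and Hist1h4j: GGTCCTtttcAGGACC
Form of 1 member, Hist2h2ac: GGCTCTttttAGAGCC

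The stem divided the members by type. All 11 H4 members with a hairpin had one of the forms with a GGCCCT or GGTCCT stem, and the 31 members of the other types had the GGCTCT stem. No match in the other 29 members says only that these letters were not in the annotated transcript, and many of those transcripts end at the stop codon.

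Promoters came from RefSeq (GRCm38.p6), as 250 bases before to 50 bases after the start, and were matched for 62 members, with 61 distinct promoters because both identifiers of Hist2h2bb share one. The windows of head-to-head neighbours can overlap, so that a match may count for both. 4 motifs were searched on both strands. TATAAA, the TATA box, was in 57.4% of member promoters and in 13.6% of all 32851 promoters. CCAAT was in 85.2% against 37.4%, and was held by every matched H1, H2A, H2B and H3 promoter but by 3 of 12 of H4. The octamer ATTTGCAT, the site of Oct1 (Pou2f1), was in 21.3% against 1.74%, in 7 of 17 promoters of H2A and 6 of 16 of H2B and in none of H1, H3 and H4. AACACA, the H1 box, was in 23.0% against 17.4%, and in 5 of 6 H1 promoters. A match is a run of letters and not a shown binding site. The 150 bases before the start are printed for 4 members, a linker, a core histone with the octamer, the H4 gene with the highest level, and the tested member with a fitted change below 0 in Ncf1-/- against WT, with the motifs in capitals.

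Hist1h1b, minus strand, chr13:21780626-21780775: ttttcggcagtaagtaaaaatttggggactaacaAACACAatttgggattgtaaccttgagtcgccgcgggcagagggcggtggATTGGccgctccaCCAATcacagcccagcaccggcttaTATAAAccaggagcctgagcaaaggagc
Hist1h2bk, plus strand, chr13:22035671-22035820: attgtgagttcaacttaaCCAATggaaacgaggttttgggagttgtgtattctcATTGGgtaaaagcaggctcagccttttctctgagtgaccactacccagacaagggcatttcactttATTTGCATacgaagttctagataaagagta
Hist1h4d, plus strand, chr13:23581418-23581567: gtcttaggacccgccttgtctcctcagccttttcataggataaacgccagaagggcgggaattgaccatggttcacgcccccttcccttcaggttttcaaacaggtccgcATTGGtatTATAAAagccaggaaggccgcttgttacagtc
Hist3h2ba, plus strand, chr11:58948761-58948910: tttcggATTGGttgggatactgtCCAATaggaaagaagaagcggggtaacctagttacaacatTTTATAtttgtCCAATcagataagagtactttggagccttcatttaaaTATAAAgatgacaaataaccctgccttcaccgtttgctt

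The libraries held 18201622 to 34086554 counts. Members are near-identical copies of each other, and RSEM divides a read that maps to several of them: 92.6% of the members' counts above 0 were not whole, against 33.8% over all genes. The split between copies is therefore uncertain, and sums over a type do not depend on it where the copies are of that type. Ncf1 had 2 to 7 counts per library in WT and 1 to 4 in the Ncf1-/- libraries, too few to check the genotype. The Y-linked genes summed to 105 to 116 CPM in the vehicle group, 7.79 to 9.18 CPM in the Igfbp2 group, 107 to 118 CPM in WT replicates 9 to 11 and 6.46 CPM in WT replicate 12. The effect of Igfbp2 therefore cannot be told apart from a difference in sex, and these values go against the study's statement that both Ncf1-/- groups came from the same animals. A sample sheet of the study also lists WT replicate 12 under another treatment, and results are given without it. The 10 neural stem cell markers summed to 3162 to 8766 CPM in WT and 8240 to 8922 CPM in the Ncf1-/- libraries, although 6 of them were called lower and 3 higher in vehicle Ncf1-/- than in WT, with a median log2 fold change of −0.62. The 10 oligodendrocyte markers summed to 2140 to 10920 CPM in WT against 258 to 377 CPM in the Ncf1-/- libraries, and all 10 were lower in Ncf1-/- NSCs (edgeR quasi-likelihood test). Astrocyte markers summed to 7359 to 13140 CPM in WT against 3246 to 4729 CPM (7 of 8 lower), and neuron markers to 661 to 1060 CPM against 453 to 565 CPM (6 of 9 lower), both without overlap. The part of these cells in the differences from WT was not tested. The counts of markers called stand beside 28.9% higher and 28.2% lower over all genes tested.

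Clustered histone mRNA was higher in Ncf1-/- than in WT NSCs, in all 5 types. Levels are given as CPM, the counts of a gene scaled to a fixed library total with TMM factors. Summed over the 71 members, the level was 6277, 5775, 3009 and 4033 CPM in WT replicates 9 to 12. It was 14160, 13400, 14080 and 11420 CPM in vehicle Ncf1-/- replicates 1 to 4, and 14790, 12160, 10980 and 11160 CPM in Igfbp2-treated replicates 5 to 8. Every Ncf1-/- library lay above every WT library, and both Ncf1-/- groups overlapped each other. The ratio of the means was 2.78 between Ncf1-/- and WT and 0.925 between Igfbp2 and vehicle. Without WT replicate 12 the first ratio went from 1.47 to 1.40 on the log2 scale. As a share of all counts of a library, the members took 0.308 to 0.602% in WT, 1.28 to 1.56% in vehicle and 0.995 to 1.32% in Igfbp2-treated NSCs. In bulk RNA, more cells in S phase and more histone mRNA per cell cannot be told apart.

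**Figure D1:**
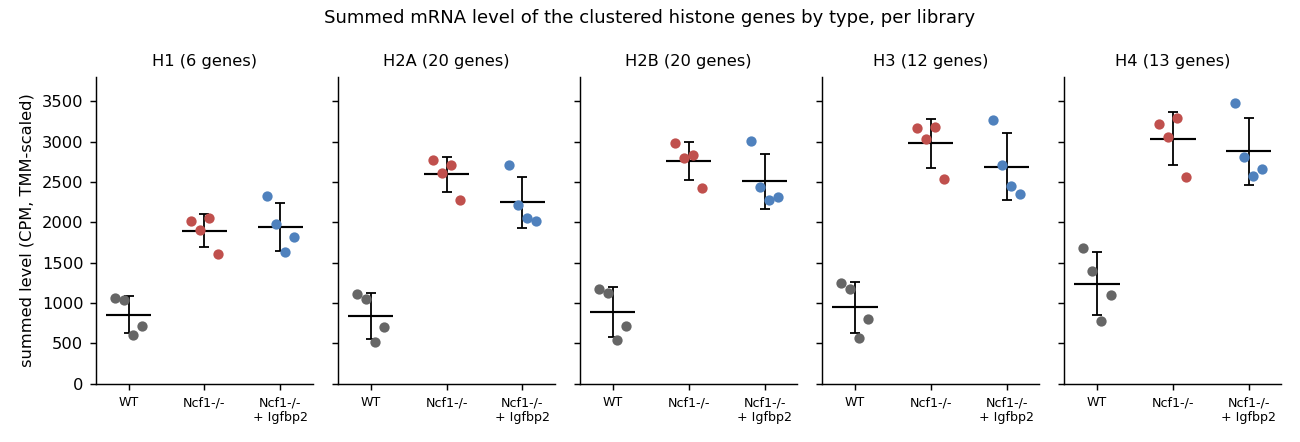
Summed level (TMM-scaled CPM, vertical axis from 0) of the H1, H2A, H2B, H3 and H4 members in each library, with the mean (bar) and SD (whiskers) of 4 libraries per group. In each type the 4 WT libraries lie below all 8 Ncf1-/- libraries, and the vehicle and Igfbp2 groups overlap.

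The sums of H2A, H2B and H3 rose more than those of H1 and H4, as values without a test. The log2 ratio of the means of Ncf1-/- and WT was 1.62 for H2A, 1.63 for H2B and 1.66 for H3, against 1.29 for H4 and 1.15 for H1. H1 thus made up 16.9 to 20.2% of the members' summed CPM in WT and 14.0 to 14.6% in vehicle Ncf1-/- NSCs, without overlap. H4 made up 24.3 to 27.2% in WT and 22.5 to 23.4% in vehicle Ncf1-/- NSCs, again without overlap. H3 went the other way, from 18.9 to 20.3% in WT to 22.2 to 22.6%. Per length, H4 was the most abundant type in every library, at 32.2 to 35.9% of the members' TPM in WT and 29.4 to 30.3% in vehicle Ncf1-/- NSCs.

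Gene by gene, 62 members had enough counts to be tested, and 60 of these rose from WT to vehicle Ncf1-/- NSCs (edgeR quasi-likelihood test over 12 libraries, Benjamini-Hochberg adjusted p under 0.05 over 15706 genes). Over all genes tested 28.9% were called higher and 28.2% lower, so that the background of calls was high. Of the members 0 were called lower by edgeR, DESeq2 or limma on log2(TPM + 1), and 0 had an unadjusted p under 0.05 in that direction. In 59 members the 4 Ncf1-/- libraries all lay above the 4 WT libraries, as in 26.1% of all genes tested. The median log2 fold change of the members was 1.59 and ranged from −0.25 to 2.39, against a median of 0.02 over all genes. Without WT replicate 12, 59 members were called, at a median of 1.46. Scaling to library totals moved the median of all genes to 0.19 and the share of calls that were higher from 50.6 to 65.6%, and the members' median to 1.78.

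The 9 members that were not tested were listed at 0 to 21 counts per library. Hist1h2aa, Hist1h2ba and Hist2h3c1 were at 0 in all 12 libraries. Such a 0 allows up to 3 counts in each from reads that map to that gene alone. Reads shared with near-identical copies may have been assigned to those copies, so that low counts of these members set no upper limit. Hist1h2aa and Hist1h2ba are the genes of testis histones. Hist1h1t, the testis linker histone, had 0 to 11 counts. The others were Hist1h2aj, Hist1h2al, Hist1h2ao, Hist1h4m and a gene identifier of Hist2h2bb that the annotation lists as a long non-coding RNA.

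**Figure D2:**
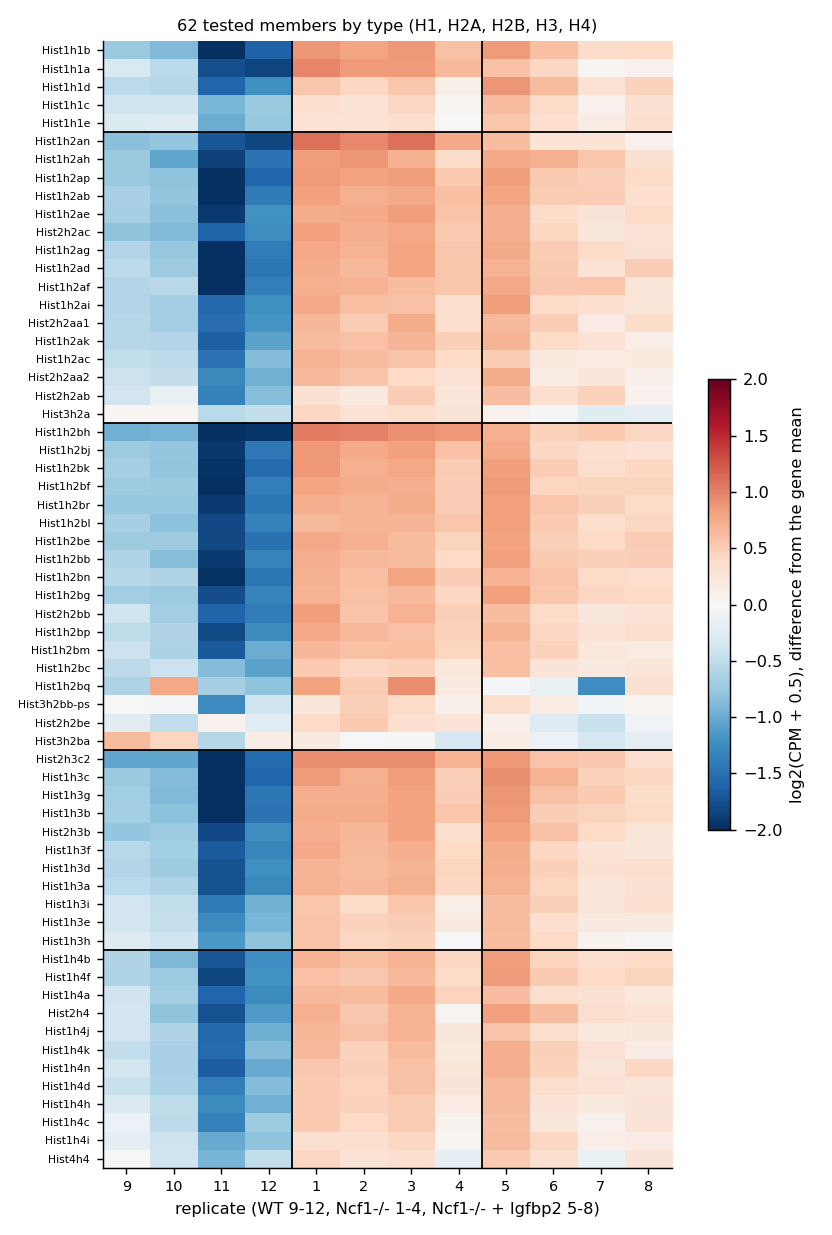
Each row is a tested member and each column a library, WT replicates 9 to 12, vehicle replicates 1 to 4 and Igfbp2-treated replicates 5 to 8. Colour is log2(CPM + 0.5) minus the mean of the gene over the 12 libraries, with the scale ending at 2 either way. Nearly all rows are blue in WT and red in both Ncf1-/- groups, with the deepest blue in WT replicates 11 and 12, and Hist3h2ba, Hist2h2be, Hist3h2a and Hist1h2bq stand out.

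Among the linker histones, the 5 tested genes rose. Hist1h1b was at 93.0, 84.3, 35.8 and 50.3 CPM in WT and at 287, 270, 285 and 235 CPM in vehicle Ncf1-/- NSCs (log2 fold change 2.03 ± 0.25 SE, adjusted p = 1.54e-05, edgeR). Hist1h1a, whose counts were whole in every library and so owed nothing to a division of reads, was at 65.3, 55.4, 23.5 and 22.2 CPM in WT and at 160, 147, 147 and 127 CPM in vehicle Ncf1-/- NSCs, and rose by 1.80 ± 0.30 (log2, SE, adjusted p = 0.000213, edgeR). The groups did not overlap in either gene. Hist1h1d followed with 1.34, and Hist1h1c and Hist1h1e rose least, with 0.87 and 0.77. Hist1h1c went from 258 to 368 CPM in WT to 501 to 649 CPM in vehicle Ncf1-/- NSCs, and Hist1h1e from 163 to 273 CPM to 329 to 412 CPM.

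In H2A, 16 of 16 tested members rose, with a median log2 fold change of 1.73. Hist1h2an rose most among them. It was at 20.6, 21.4, 11 and 10.1 CPM in WT and at 80.0, 72.6, 79.8 and 62.8 CPM in vehicle Ncf1-/- NSCs (log2 fold change 2.23 ± 0.23 SE, adjusted p = 3.52e-06, edgeR). Per length Hist1h2ap was the most abundant H2A gene, with a mean of 704 TPM over the 12 libraries, followed by Hist2h2aa1 with 472 TPM and Hist1h2ab with 437 TPM. Their log2 fold changes were 1.97, 1.52 and 1.87. Hist2h2aa1 and Hist2h2aa2 are copies of each other in Hist2, and the second had 1.24. Hist2h2ac had 1.83 and Hist2h2ab 1.01. Hist3h2a, in the small Hist3 cluster, rose least of the H2A genes, from 86.8, 86.9, 57.7 and 60.6 CPM in WT to 112, 103, 107 and 101 CPM (0.53 ± 0.13 SE, adjusted p = 0.00424, edgeR).

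In H2B, 16 of 18 tested members rose, with a median of 1.68. Hist1h2bh had the largest rise of all members. It was at 19.0, 19.5, 8.58 and 9.35 CPM in WT and at 77.2, 75.8, 71.3 and 69.2 CPM in vehicle Ncf1-/- NSCs, a fold of 5.23 (log2 fold change 2.39 ± 0.23 SE, adjusted p = 2.32e-06, edgeR). The 3 most abundant H2B genes per length were Hist1h2bg with 512 TPM, Hist1h2bb with 463 TPM and Hist1h2bk with 460 TPM, and their log2 fold changes lay between 1.66 and 1.87. Hist2h2bb rose by 1.61.

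Both tested members that did not pass were H2B genes, Hist3h2ba and Hist1h2bq. Hist3h2ba was at 59.7, 51.8, 25.8 and 42.5 CPM in WT and at 43.5, 38.6, 39.0 and 30.3 CPM in vehicle Ncf1-/- NSCs, and these groups overlapped (−0.25 ± 0.21 SE, adjusted p = 0.332, edgeR). Without WT replicate 11, which held its lowest value, it was called lower. Hist2h2be was at 6.78, 5.51, 8.43 and 6.79 CPM in WT and at 10.5, 11.7, 10.2 and 9.66 CPM in vehicle Ncf1-/- NSCs (0.60 ± 0.15 SE, adjusted p = 0.00354, edgeR). It was the only tested member with its highest WT value in replicate 11, the WT library with the lowest summed histone level. The pseudogene Hist3h2bb-ps had 0.70, a call lost without WT replicate 12 or without vehicle replicate 2 or 3, and Hist1h2bq, at 2.22 CPM or less on average, had 1.11 without passing the test (adjusted p = 0.0903, edgeR).

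In H3, 11 of 11 tested members rose, with a median of 1.63. Hist2h3c2 led, from 117, 117, 53.1 and 82.2 CPM in WT to 459, 460, 462 and 392 CPM in vehicle Ncf1-/- NSCs (2.27 ± 0.21 SE, adjusted p = 1.99e-06, edgeR). The most abundant per length were Hist2h3b with 525 TPM, Hist1h3c with 465 TPM and Hist1h3d with 435 TPM, and their log2 fold changes were 1.72, 1.97 and 1.61. The lowest log2 fold change of an H3 member was 1.0, in Hist1h3h.

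In H4, 12 of 12 tested members rose, with the lowest median of the core histones, 1.33. The 4 members with the highest level per length of all 71 were of this type. Hist1h4d had 970 TPM, Hist1h4n 961 TPM, Hist1h4h 845 TPM and Hist1h4c 752 TPM, and their log2 fold changes were 1.25, 1.31, 1.13 and 1.0. In Hist1h4d the CPM were 220, 194, 116 and 164 in WT and 433, 410, 452 and 359 in vehicle Ncf1-/- NSCs, without overlap. Hist2h4 rose by 1.47. Hist4h4, the gene of the Hist4 cluster, rose least (0.66 ± 0.19 SE, adjusted p = 0.0111, edgeR) and was the called member with overlapping groups, with 24.0 to 46.8 CPM in WT and 41.3 to 62.2 CPM in vehicle Ncf1-/- NSCs.

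**Figure D3:**
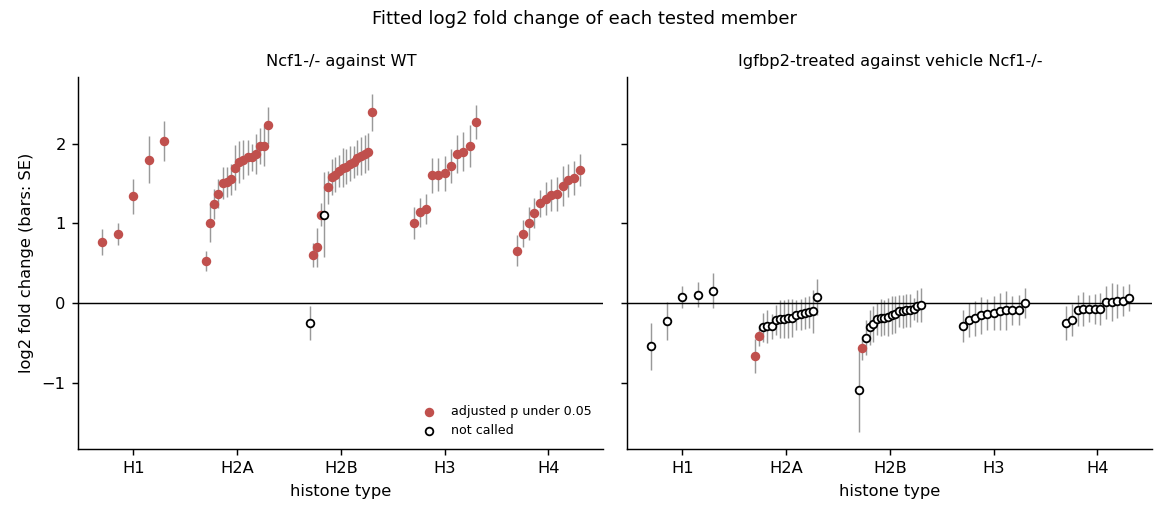
Log2 fold change of each tested member by type, Ncf1-/- against WT on the left and Igfbp2-treated against vehicle Ncf1-/- on the right, with the SE as bars. Filled points passed an adjusted p of 0.05 in edgeR. On the left 60 of 62 are filled and lie above 0, and on the right 3 are filled, all below 0.

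By cluster, the median log2 fold change was 1.63 over 49 tested members of Hist1, 1.52 over 9 of Hist2, 0.53 over 3 of Hist3 and 0.66 for the gene of Hist4. Hist3 made up 2.46 to 2.88% of the members' summed CPM in WT and 1.11 to 1.23% in vehicle Ncf1-/- NSCs. Within Hist1, the 3 stretches of neighbours on chromosome 13, separated by over 200000 bases, had medians of 1.55, 1.87 and 1.63.

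Many H2A and H2B genes lie head to head, and 13 such pairs had starts 173 to 306 bases apart. In 9 of the 11 pairs with both genes tested, the log2 fold changes of the neighbours differed by less than 0.3, and the median of H2B minus H2A was −0.10. Hist1h2ad and Hist1h2bf, for example, had 1.77 and 1.84. The largest difference was in Hist2, where Hist2h2ac had 1.83 and Hist2h2be, whose start is 239 bases away, had 0.60. Hist1h2an and Hist1h2bp had 2.23 and 1.58. These differences were not tested, and reads divided between copies enter them. Genes that are not neighbours were not compared in this way. The quartiles of the log2 fold change were 1.48 and 1.84 in H2A and 1.2 and 1.81 in H2B, so that such genes can also differ by less than 0.3.

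The members were also grouped by how far the annotated transcript runs past the hairpin. Among the 47 members with 1 transcript of the same length in GENCODE vM21 as in the deposited files, 14 tested members ended within 100 bases of it, and all 14 rose, by 1.24 to 1.97 with a median of 1.81. The 8 tested members that ran on for over 100 bases, Hist1h1c, Hist1h4i, Hist2h4, Hist3h2a and Hist3h2ba among them, had a median of 1.01 and ranged from −0.25 to 2.27, and 7 of them rose. Hist2h3c2, at 2.27, was the highest of these. In the 18 tested members with no hairpin found, the median was 1.55. Outside the 47, 16 tested members with a hairpin had a median of 1.6 and ranged from 0.66 to 1.97. They were not split by length, though some also ran on for over 100 bases in GENCODE vM21. Among those were Hist1h2ae (1.83), Hist1h2bg (1.66), Hist1h1e (0.77) and Hist4h4 (0.66). H1 and Hist3 members were in the group that ran on for over 100 bases and not in the group that ended within 100. The part of type and cluster was not tested. These groups were set after the values were known, so that they carry no test.

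**Figure D4:**
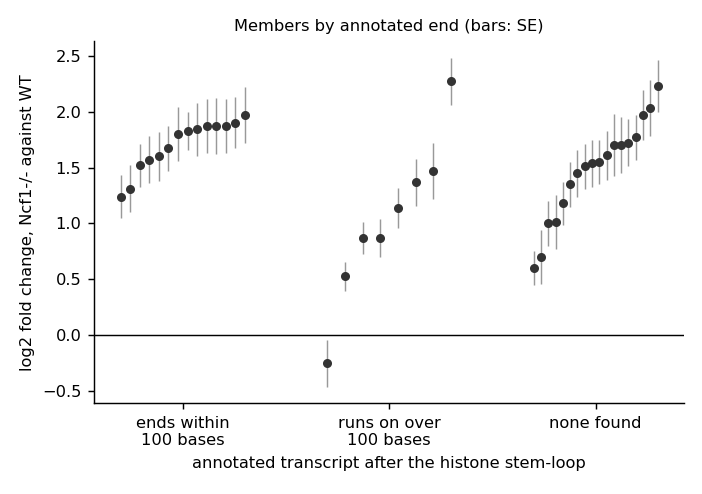
Log2 fold change of Ncf1-/- against WT, with the SE as bars, for tested members whose annotated transcript ends within 100 bases of the stem-loop (14 members), runs on over 100 bases (8 members) or holds none (18 members). The first group lies between 1.24 and 1.97, and the second spreads from −0.25 to 2.27. Members outside the 47 with the same length in GENCODE vM21 and the deposited files are not shown.

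Histone mRNA and the mRNA of DNA replication genes rose by a like factor. A list of 30 S phase genes, with Pcna, the Mcm2 to Mcm7 helicase subunits and the ribonucleotide reductase genes Rrm1 and Rrm2 in it, had 30 of 30 genes higher in Ncf1-/- than in WT NSCs (edgeR), with a median log2 fold change of 1.48. Of all genes tested 28.9% were called higher. Pcna, the sliding clamp of DNA polymerase, had 1.46, and Rrm2 had 2.48. The list summed to 875, 848, 542 and 655 CPM in WT replicates 9 to 12, to 1876, 2100, 2048 and 2362 CPM in vehicle Ncf1-/- and to 1965, 1923, 2186 and 1587 CPM in Igfbp2-treated NSCs. Divided by this sum in the same library, the members' level was 7.17, 6.81, 5.55 and 6.16 in WT, 7.55, 6.38, 6.87 and 4.83 in vehicle and 7.53, 6.32, 5.02 and 7.03 in Igfbp2-treated NSCs. The 3 groups overlapped, and their mean ratios were 6.42, 6.41 and 6.48, a log2 difference of 0.00 between Ncf1-/- and WT. By the same measure H1 was lower in vehicle Ncf1-/- NSCs, with 1.10 to 1.22 in WT and 0.678 to 1.08 in vehicle, Hist3 was with 0.160 to 0.177 against 0.0593 to 0.0878, and Hist4 with 0.0412 to 0.0535 against 0.0175 to 0.0331. WT and vehicle did not overlap in these 3 sums, which carry no test. In treated libraries H1 had 0.745 to 1.19 and overlapped WT. Hist3, with 0.0501 to 0.0735, and Hist4, with 0.0192 to 0.0348, lay below WT in treated libraries too.

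**Figure D5:**
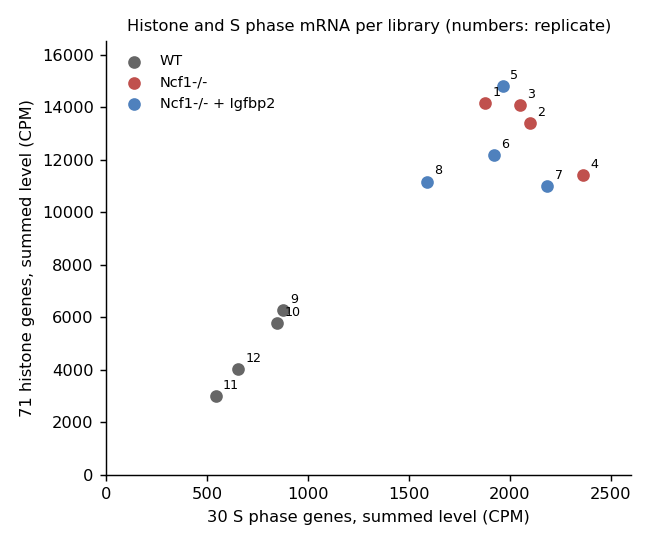
Summed level of the 71 histone genes (vertical, CPM) against that of 30 S phase genes (horizontal, CPM) in each library, numbered by replicate. The WT libraries lie at 542 to 875 and 3009 to 6277, and the Ncf1-/- libraries of both treatments at 1587 to 2362 and 10980 to 14790.

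Within WT the libraries also differed from each other, and they kept their order for both sums, with replicate 9 highest and replicate 11 lowest. Oligodendrocyte marker mRNA was at 10580, 10920, 2140 and 6308 CPM in replicates 9 to 12, and astrocyte marker mRNA at 7359, 8090, 13140 and 12110 CPM. The WT libraries with the most oligodendrocyte mRNA thus had the most histone mRNA, whereas the Ncf1-/- libraries, with the least, had more. The part of these cells in the result was not tested. In vehicle Ncf1-/- NSCs, replicate 4 had the lowest summed histone level and the highest S phase sum. It also had the longest fragments (191.0 bases against 171.6 to 180.7) and the least RNA from 5 short structural RNA genes, Rn7sk among them (78510 CPM against 104900 to 120700). Their part was likewise not tested.

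The genes that make, process and remove histone mRNA were followed through lists. Counts of calls between Ncf1-/- and WT, here and in the lists that follow, stand beside 28.9% higher and 28.2% lower over all genes tested. Of 10 genes of histone gene transcription, 4 were higher and 3 lower in Ncf1-/- than in WT NSCs (edgeR, adjusted p under 0.05), with a median of 0.06. The higher ones were Ccne1 and Ccne2, the cyclin E genes, with 1.35 and 1.88, their kinase Cdk2 with 1.28, and Coil, which codes for coilin, with 0.55. Pou2f1, which codes for Oct1, fell by 1.04 on the log2 scale, Gtf2a1 by 0.64 and Yy1 by 0.33. Npat itself was at 40.3 to 43.2 CPM in WT and 34.3 to 45.5 CPM in vehicle Ncf1-/- NSCs (−0.13, adjusted p = 0.272, edgeR). Casp8ap2, which codes for the histone locus body protein FLASH, had 0.24 (adjusted p = 0.196, edgeR).

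Of 11 genes of histone mRNA 3′ end processing, 3 were higher and 2 lower, beside 28.9% and 28.2% of all genes tested. Slbp was at 21.7, 20.5, 16.3 and 17.4 CPM in WT and at 31.8, 35.4, 37.7 and 38.7 CPM in vehicle Ncf1-/- NSCs, without overlap (0.92 ± 0.11 SE, adjusted p = 1.48e-05, edgeR). Cpsf2 had 0.34 and Srrt, which codes for Ars2, had 0.40, whereas Sympk and Cstf2 fell by 0.76 and 0.70 on the log2 scale. Of 6 genes of histone mRNA decay, Eri1, the exonuclease that trims the hairpin end, was higher with 0.87, and Upf1 and Dis3l2 were lower with −0.37 and −0.39. With library totals or on log2(TPM + 1), Upf1, Dis3l2 and Yy1 no longer passed the test, on log2(TPM + 1) neither did Cpsf2, and the call of Srrt was lost without vehicle replicate 1 or 3, treated replicate 5 or 6 or WT replicate 12.

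Histone chaperones that work at the replication fork rose with the members: 12 of 16 were higher and the other 4 did not pass the test, with a median of 0.79. Mcm2 is in this list and in the S phase list. Chaf1b and Chaf1a, subunits of the CAF-1 assembly factor, had 2.35 and 1.42. Asf1b had 1.61, Nasp 0.94 and Hat1, which acetylates new H4, 1.69. Of 9 chaperones that act outside replication, 2 were higher and 4 lower, with a median of −0.20. The higher ones were Hjurp, the chaperone of the centromeric histone, with 1.13 and Anp32e, an H2A.Z chaperone, with 0.78. Srcap and Ep400, remodellers that place H2A.Z, had −0.73 and −0.93.

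Of 11 histone genes outside the clusters, 6 were higher and the other 5 did not pass the test, with a median of 0.32. Cenpa, the centromeric H3, had 2.16. H2afz, the gene of H2A.Z, was at 114, 96.9, 83.1 and 81.2 CPM in WT and at 311, 292, 306 and 310 CPM in vehicle Ncf1-/- NSCs (1.70 ± 0.11 SE, adjusted p = 1.01e-07, edgeR). H2afx, the gene of the histone that is phosphorylated at DNA breaks, had 1.62, from 80.4 to 136 CPM in WT to 315 to 345 CPM. H1f0, the linker histone of resting cells, had 1.01. Of the H3.3 genes, H3f3b had 0.32 (adjusted p = 0.00477, edgeR), a call lost on log2(TPM + 1), and H3f3a had 0.13 (adjusted p = 0.336, edgeR).

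Between Igfbp2-treated and vehicle Ncf1-/- NSCs few members were called in the fit over 12 libraries. Of 62 tested members 3 were called lower (edgeR, adjusted p under 0.05), against 10.7% of all genes tested. By edgeR, DESeq2 and limma on log2(TPM + 1), 0 were called higher, and 0 had an unadjusted p under 0.05 in that direction, against 14.2% of all genes called higher. Fitted values lay below 0 in 52 members, with a median of −0.14, beside a median of 0.04 over all genes. In 5 members the 4 treated libraries all lay below the 4 vehicle libraries, as in 14.7% of all genes. They were the 3 called members with Hist1h1a and Hist1h2bh, which did not pass the test.

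Hist1h2an was at 57.1, 44.8, 45.0 and 39.5 CPM in replicates 5 to 8, below 62.8 to 80.0 CPM in vehicle (−0.66 ± 0.21 SE, adjusted p = 0.0397, edgeR). Hist2h2be was at 8.53, 6.61, 5.74 and 7.56 CPM, below 9.66 to 11.7 CPM (−0.56 ± 0.15 SE, adjusted p = 0.0172, edgeR). Hist3h2a was at 89.9, 81.9, 71.4 and 74.5 CPM, below 101 to 112 CPM (−0.41 ± 0.13 SE, adjusted p = 0.0411, edgeR). Hist2h2be and Hist3h2a are at once 2 of the 3 called members with the smallest rise between Ncf1-/- and WT NSCs and members that fell with Igfbp2. Hist1h2an was instead among the 3 members with the largest rise there, at 2.23. Both comparisons share the vehicle libraries, so that they are not independent of each other. Among these members, 1 call remained without vehicle replicate 1 or 3 or without treated replicate 6, 7 or 8, that of Hist2h2be, and 0 remained without vehicle replicate 2. Without vehicle replicate 4 it was 2.

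The number of calls in this comparison rested on how the libraries were scaled, on whether the WT libraries were in the fit and on the pairing. With library totals 10 members were called lower and the median was −0.41, while the median of all genes went to −0.23 and the share of calls that were higher went from 57.0 to 11%. With limma on log2(TPM + 1) 58 members were called lower, at a median of −0.67 beside −0.30 over all genes, and 3.15% of calls were higher. Summed TPM of the members was 27200 to 29300 in vehicle and 14000 to 20000 in treated libraries, without overlap. Short structural RNAs took 56.0 to 60.3% of the TPM in vehicle and 62.1 to 72.3% in treated libraries, also without overlap. With the short structural RNAs left out of the TPM, an alternative added after the data were seen, the log2 ratio of the summed levels was −0.33, against −0.11 with TMM factors and 0.02 relative to the S phase list. With the NSC preparation as a block, its pairs matched by the order of the replicates, 22 members were called lower in the Ncf1-/- libraries alone. Without that block in the same libraries it was 13. The 8 mesenchymal markers summed to 14.5 to 17.9 CPM in vehicle and 36.8 to 47.6 CPM in treated libraries, and their part was not tested.

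By type, the log2 ratios of the mean summed CPM between Igfbp2 and vehicle were 0.03 for H1, −0.20 for H2A, −0.14 for H2B, −0.15 for H3 and −0.08 for H4. In these sums the libraries of the groups overlapped in each type. As a share of the members' summed CPM, H1 made up 14.0 to 14.6% in vehicle and 14.8 to 16.3% in treated libraries, without overlap. H2A made up 19.3 to 20.0% and 18.1 to 18.7%, also without overlap, whereas H2B, H3 and H4 overlapped. With library totals the H2A and H2B sums were lower in treated libraries, without overlap. These shares and sums carry no test. Of the lists, 28 of 30 S phase genes did not pass the test, and Tyms (−0.66) and Prim1 (−0.48) were lower (edgeR). Slbp had −0.10 (adjusted p = 0.530, edgeR) and Npat −0.01 (adjusted p = 0.954, edgeR). Casp8ap2 was lower (−0.50), as were Srrt (−0.67), Ncbp2 (−0.60), H2afz (−0.32) and Daxx, an H3.3 chaperone (−0.24). Yy1 (0.38), Dis3l2 (0.22) and Ipo4, an importer of histones into the nucleus (0.36), were higher, but all 3 turned below 0 on log2(TPM + 1), and Dis3l2 also with library totals, where Yy1 and Ipo4 no longer passed. The call of Dis3l2 was also lost with DESeq2, with other filters, with the libraries of those groups alone and with the block. Tyms, Srrt and Ncbp2 passed the test with any 1 library left out. The calls of Casp8ap2, H2afz, Prim1, Dis3l2, Ipo4, Daxx and Yy1 did not: vehicle replicate 2 decided that of Daxx, treated replicate 7 that of Yy1, and several libraries of these groups each of the others.

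Against WT, Igfbp2-treated Ncf1-/- NSCs had 57 of 62 tested members higher (edgeR), where 31.6% of all genes were called higher and 30.8% lower, with a median of 1.43. The 5 that did not pass the test were Hist3h2a (0.12), Hist2h2be (0.04), Hist3h2ba (−0.34), Hist3h2bb-ps (0.53) and Hist1h2bq (0.03). Hist3h2ba was called lower with limma on log2(TPM + 1) and log2(TPM + 0.1), and with edgeR without WT replicate 11. Hist3h2bb-ps was called higher without WT replicate 9. Both comparisons with WT share the WT libraries, so that they are not independent of each other. Set side by side, Hist1h2bh had 2.39 in vehicle and 1.96 in treated NSCs against WT, Hist2h3c2 2.27 and 1.98, Hist1h3c 1.97 and 1.88 and Hist1h1c 0.87 and 0.96. Treated libraries also differed from most WT libraries in Y-linked mRNA. It summed to 7.79 to 9.18 CPM in treated libraries, 107 to 118 CPM in WT replicates 9 to 11 and 6.46 CPM in WT replicate 12. The part of sex was not tested.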

How the data were processed

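RNA-seq libraries of NSC cultures were analysed (4 per group, 18201622 to 34086554 counts each). The authors depleted ribosomal RNA and estimated gene levels with RSEM and Bowtie2 on GRCm38 (versions not given in the sources used here). Per the file headers, the deposited tables hold RSEM expected counts, TPM and FPKM per gene, and the FPKM values were not used. A deposited table of merged values, a score equal to TPM times the number of transcripts of a gene, was used for gene symbols only. Expected counts were rounded to whole numbers and fitted in edgeR 4.0.16 (R 4.3.3; filterByExpr by group, TMM factors, quasi-likelihood test with 1 mean per group over 12 libraries, Benjamini-Hochberg over 15706 genes). A call is an adjusted p under 0.05. CPM and summed levels use the TMM factors, and summed levels carry no p. Alternatives used DESeq2 1.42.0, limma 3.58.1 on log2 TPM, other filters and scalings, and left out libraries. The steps were tested on simulated data.

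The members and gene lists were chosen with earlier results of these data known. Named genes were the 3 members per type with the highest mean TPM, the 3 called members with the largest rise or fall in each comparison, all tested members of H1, Hist2, Hist3 and Hist4, and called genes of the lists. The groups by annotated end, the hairpin search, the pairs of neighbours and other members named with them were chosen after the values were seen. Separate pups are given as the source of the cultures, and p-values measure the spread between these libraries. The methods of the study pair the Ncf1-/- cultures by animal. The sample titles do not give the pairs, so that vehicle replicates 1 to 4 were matched in order with treated replicates 5 to 8. Deviations from the group means correlated at −0.0585 to 0.0151 within the 4 pairs so formed and at −0.214 to 0.219 in the 12 others.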

Additional observations from a re-analysis of the deposited data

Results flagged for a closer look

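In groups of 4 libraries, a library was singled out where its gap to the nearest of the others took more of the range of the group than Dixon's critical value allows. This held for 7 of 195 groups tested, and chance gives about 1 in 20. Among members, Hist1h2ap and Hist2h3c2 were at 400 and 392 CPM in vehicle Ncf1-/- replicate 4, against 484 to 501 CPM and 459 to 462 CPM in the other vehicle libraries. Hist1h2bb and Hist1h4h were at 304 and 566 CPM in Igfbp2-treated replicate 5, against 238 to 246 CPM and 415 to 434 CPM. The summed level of the histone gene transcription list was 280 CPM in WT replicate 11 and 310 to 315 CPM in the others. The neuron markers summed to 565 CPM in vehicle replicate 4 and 499 to 510 CPM in the others. The Y-linked genes summed to 6.46 CPM in WT replicate 12 and 107 to 118 CPM in the others.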

How the results depend on the processing

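The median and summed rise of the members in Ncf1-/- over WT NSCs kept their direction under every alternative run except as a ratio to the S phase list, and the number of members called stayed at 59 to 61 of those tested with each library left out, as it did at 56 to 58 for Igfbp2-treated against WT. The 3 calls between Igfbp2 and vehicle became 10 with library totals, 13 with the libraries of those groups alone, 58 and 59 with limma on log2(TPM + 1) and log2(TPM + 0.1), all lower, and 0 at an adjusted p under 0.01 or with a log2 fold change of at least 1, and 0 to 3 with a library left out. With the preparation as a replicate block, its pairs matched by order, it was 22, though these pairs did not deviate together. The median between Igfbp2 and vehicle was −0.67 with limma on log2(TPM + 1) and −0.54 over members with whole counts, which is Hist1h1a alone, and between Igfbp2 and WT it was 1.03 with limma. In summed TPM the log2 ratio of Igfbp2 to vehicle was −0.64 for all members, −0.48 for H1, −0.73 for H2A, −0.68 for H2B, −0.64 for H3 and −0.61 for H4, and that of Igfbp2 to WT was 0.99, 0.83 for H1, 1.12 for H2B, 1.08 for H3 and 0.82 for H4. Relative to the S phase list, Ncf1-/- against WT gave 0.00 for all members, −0.34 for H1, 0.15 for H2A, 0.16 for H2B, 0.18 for H3 and −0.19 for H4, and Igfbp2 against WT gave 0.01, −0.18, 0.07, 0.15, 0.16 and −0.13. With limma on log2(TPM + 1) and log2(TPM + 0.1), values between Igfbp2 and vehicle turned to −0.41 and −0.41 in Hist1h1c, −0.39 and −0.39 in Hist1h1e, −0.54 and −0.54 in Hist1h3i, Hist1h4f and Hist1h4n, −0.43 and −0.44 in Hist1h4i, −0.42 and −0.45 in Hist4h4, −0.10 and −0.11 in Yy1, −0.21 and −0.26 in Dis3l2, −0.41 and −0.44 in Cstf2 and −0.35 and −0.37 in Ipo4. With library totals Dis3l2 had −0.05 and Anp32e −0.24. Between Igfbp2 and WT, H3f3a turned to −0.38 and −0.38 and Asf1a to −0.17 and −0.20 with limma. The cause was not tested.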
